A study of Mus musculus with 4 samples.

Results

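Autosomal CpGs with a very high number of bisulfite reads were examined, that is, CpGs with 30 or more reads, both strands summed, in every one of 4 whole-genome bisulfite libraries. There were 4005 such CpGs among 1430301 autosomal CpGs listed in all 4 libraries and 15959399 listed in any. Neighbours within 1 kb were joined, which gave 616 loci. The members were chosen on coverage alone, so coverage is given below as a description with no test, and methylation levels, which the choice did not use, were tested. The libraries came from microglia, the brain's own macrophage-like immune cells, of the hippocampus of Tmem119-tdTomato+/- mice, which carry 1 copy of a red fluorescent reporter allele at a microglial gene, at postpartum 3 weeks. There were 2 FGR libraries (the abbreviation commonly stands for fetal growth restriction) and 2 control libraries of the same genotype and age. The labels do not state how the FGR mice were made or how the cells were gated. Nor do they state whether a library is 1 animal or a pool, so no p-value can be read as measuring a spread between animals. Those of the quasi-binomial test of reads, described at the end, also rest on read counts and on an overdispersion partly borrowed from other features.

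Bisulfite converts unmethylated cytosine, so the percent of reads that keep a C at a CpG is its methylation level. Tandem satellite arrays at centromeres, ribosomal RNA genes and recently duplicated gene families exist in many near-identical copies, of which a genome assembly holds only some. Reads from all copies can then be placed on the few that the assembly has, and the level there averages over copies that cannot be told apart. In mouse somatic cells, satellite DNA is known to be heavily methylated, while ribosomal RNA genes are a mixture of methylated silent copies and unmethylated active ones.

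The libraries listed between 7615146 and 13578464 cytosines, with a summed coverage of 49563150 to 91762720 reads. The autosomal level was 74.8% and 75.7% in the FGR libraries and 76.1% and 76.5% in the control libraries. Mitochondrial CpGs had 5.74% and 2.88% in the FGR libraries and 1.10% and 0.954% in the control libraries. As a check of the cells, the microglial ADP receptor gene P2ry12 had, at its less methylated end, 2.82% and 1.99% in FGR and 0.00% and 3.17% in control. The less methylated end of Cx3cr1, the fractalkine receptor, had 1.85% and 1.18% in FGR and 4% and 2.78% in control. The less methylated ends of the microglial genes Tmem119 and Csf1r lay between 2.70% and 40% where measured. The less methylated ends of the neuronal gene Rbfox3, the astrocyte genes Gfap and Aqp4 and the myelin gene Mog lay between 53.2% and 89.2% where measured, while that of the neuronal gene Snap25 lay between 3.19% and 4.84%.

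Of 31396 RefSeq promoter windows searched, each from 250 bases before to 50 bases after an annotated start, 6 held member CpGs. Sequence was at hand only for such windows, so the sequences of satellite and ribosomal loci are not shown. The windows shown next are the 2 with the most member CpGs, for the gene model Gm40237 and for Ugt1a1, the bilirubin-conjugating glucuronosyltransferase, and that of Hjurp, the chaperone that deposits the centromeric histone CENP-A. They are RefSeq sequences of GRCm38.p6, given 5′ to 3′ on the strand of the gene, with the member CpGs in capitals. They lie at chr4:118547156-118547455 on the plus strand for Gm40237, chr1:88211709-88212008 on the plus strand for Ugt1a1 and chr1:88277530-88277829 on the minus strand for Hjurp.
Gm40237: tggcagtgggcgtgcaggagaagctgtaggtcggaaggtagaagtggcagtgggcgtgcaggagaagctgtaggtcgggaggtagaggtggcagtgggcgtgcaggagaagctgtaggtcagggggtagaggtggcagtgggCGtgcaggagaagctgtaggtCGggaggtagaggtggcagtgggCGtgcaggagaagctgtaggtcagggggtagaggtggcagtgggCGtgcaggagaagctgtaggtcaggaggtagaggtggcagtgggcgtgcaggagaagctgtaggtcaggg
Ugt1a1: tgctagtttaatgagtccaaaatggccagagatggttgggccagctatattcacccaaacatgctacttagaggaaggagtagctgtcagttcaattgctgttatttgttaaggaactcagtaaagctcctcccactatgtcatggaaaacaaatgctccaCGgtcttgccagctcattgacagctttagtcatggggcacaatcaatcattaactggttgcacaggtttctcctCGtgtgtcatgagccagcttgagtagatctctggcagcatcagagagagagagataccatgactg
Hjurp: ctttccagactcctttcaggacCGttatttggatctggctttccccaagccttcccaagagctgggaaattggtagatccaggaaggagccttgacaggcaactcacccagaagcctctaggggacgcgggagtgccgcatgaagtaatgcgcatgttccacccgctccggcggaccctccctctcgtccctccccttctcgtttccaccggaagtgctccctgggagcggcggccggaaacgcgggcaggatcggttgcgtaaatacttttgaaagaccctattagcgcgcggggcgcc

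The Gm40237 window was itself a tandem repeat. Shifted by 44 bases against itself, 246 of 256 bases matched, 96.1%, against a median of 32.4% over all shifts from 10 to 150 bases. It held 10 CpGs, 4 of them members, and the member CpG at position 118547319 had levels of 86.5% and 71.9% in FGR and 79.7% and 78.0% in control. Over the longer distances searched, the whole locus of 29 member CpGs, chr4:118547298-118548687, repeated its CpGs most often at 132 bp, for 8 of 24 possible pairs. Distances as short as 44 bp were not searched there. The locus level was 79.0% and 75.0% in FGR and 76.3% and 79.0% in control, and the groups overlapped. Its coverage over the median of shared CpGs was 10.2 and 12.3 in FGR and 19.5 and 15.3 in control, lower in both FGR libraries. That median was 6 and 8 reads in FGR and 6 and 7 in control. Both CpGs of the Ugt1a1 window were members. The one at position 88211870 had 50% and 46.0% in FGR and 32.5% and 57.9% in control, and the one at 88211944 had 12.9% and 8.89% in FGR and 6.67% and 14.6% in control, each with overlapping groups. In the CpG-dense Hjurp window, 1 of 22 CpGs was a member, with 7.89% and 16.3% in FGR and 3.13% and 13.0% in control.

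The loci were mostly small. A single member CpG made up 266 of the 616 loci, 230 loci held 3 or more and 58 held 10 or more, while the 2 largest held 1226 CpGs, 30.6% of all. Of the member CpGs, 25.9% lay within the first 3.5 Mb of a chromosome, against 2.37% of the 26557 other tested CpGs, which had 10 to 29 reads in the lowest library. Of these 1038 member CpGs, 636 belonged to 1 locus at the start of chromosome 9. The first position listed in all libraries was 3000031, the end of the unsequenced centromeric stretch with which mouse chromosomes begin in this build. Pseudogenes overlapped 10.6% of member loci and 2.20% of the 15112 loci of the other tested CpGs. Members took 25.5% and 23.6% of all reads at shared CpGs in the FGR libraries and 27.2% and 26.7% in the control libraries. Reads are counted at each CpG they cover.

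The level differed with coverage and was lowest at intermediate coverage. The mean level of CpGs listed in all libraries was 76.6% and 76.7% in FGR and 76.9% and 77.0% in control where the lowest library had 5 to 9 reads. At 100 to 499 reads it was 41.5% and 42.4% in FGR and 42.4% and 45.5% in control, and at 1000 or more reads it was 79.4% and 79.5% in FGR and 79.5% and 79.6% in control. These last 2 ranges held 1135 and 356 CpGs, so single large loci weigh heavily on them. The ribosomal locus described below had 590 CpGs at a mean of 310 reads and a level of 20.5% to 25.9%. A relation of level to coverage apart from such loci was not tested. The 330 CpGs just inside the threshold of 30 reads had 66.8% and 66.1% in FGR and 66.7% and 66.98% in control, and the 430 just outside it had 66.1% and 66.2% in FGR and 65.9% and 66.1% in control. Of the member CpGs, 393 had a mean level under 20%, 2177 lay from 20% to 80% and 1435 above 80%.

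**Figure D1:**
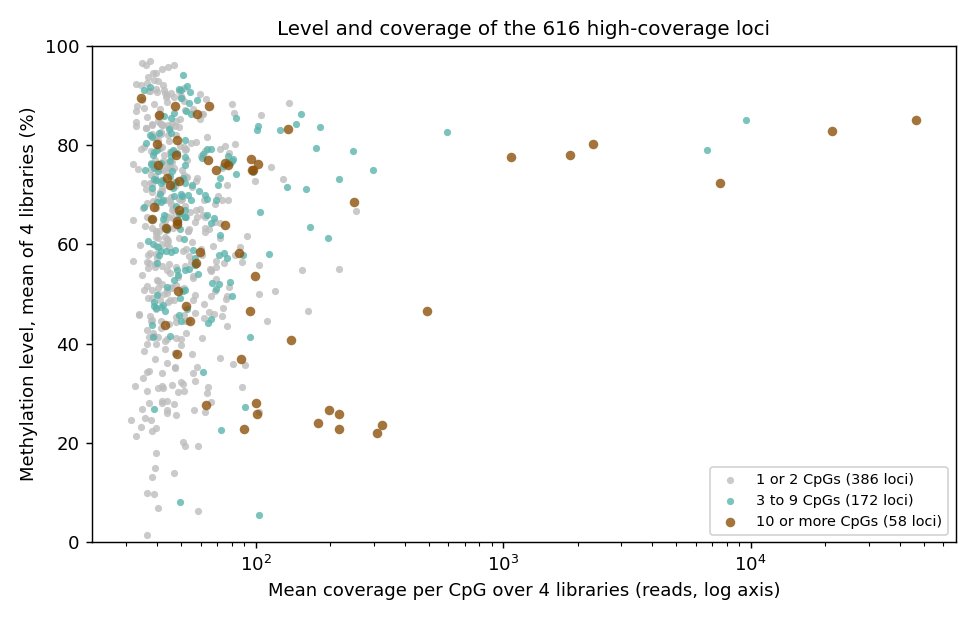
Mean methylation level over the 4 libraries against mean coverage per CpG (log axis), with 1 point for each of the 616 loci, coloured by the number of member CpGs. Loci with over 1000 reads per CpG lie above 70%, and a group of loci of 10 or more CpGs with about 100 to 300 reads per CpG lies near 20% to 30%.

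Averaged over CpGs, members had a lower level than the other tested CpGs in every library. The means were 58.7% against 71.3% in FGR 1, 59.1% against 71.3% in FGR 2, 59.5% against 71.6% in control 1 and 60.7% against 71.9% in control 2. The difference was -12.0 ± 0.596 points (SD, n = 4, two-sided exact sign-flip p = 0.125, the smallest that 4 libraries can give). Weighted by reads it turned round to 7.33 points. A single ribosomal locus, described below, supplied 590 of the 4005 members at 20.5% to 25.9%, and the mean without it was not taken. The median over member CpGs was 65.9% and 66.1% in FGR and 67.2% and 66.6% in control. At the other tested CpGs it was 77.8% in both FGR libraries and 78.6% in both control libraries. The SD between libraries of a group, which falls with the number of reads that chose the members, had a median at members of 2.70 points between FGR libraries and 2.77 between control libraries, against 6.0 points at the other tested CpGs in both groups.

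Over all members together the level was slightly lower in the FGR libraries. The pooled level was 76.8% and 77.5% in FGR and 77.7% and 78.4% in control. The groups did not overlap, but FGR 2 lay below control 1 by less than the SD within either group. The difference was -0.877 points (77.2 ± 0.503% in FGR, 78.1 ± 0.508% in control, SD, n = 2 each, two-sided exact permutation p = 0.333, the smallest that 6 assignments can give). The median level of a locus was 65.7% and 65.0% in FGR and 66.7% and 66.0% in control, a difference of -0.960 points with the same exact permutation p of 0.333. With a threshold of 50 reads in place of 30 the median difference turned to 1.03 points.

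Site by site, few members differed. Of all 30562 tested CpGs, 24 had a Benjamini-Hochberg adjusted p under 0.05 in the moderated quasi-binomial test, 0.0785%, and 20 of these were among the 4005 members, 0.499%. Of the 20, 19 were higher in FGR and 1 was lower, against 23 higher, 0.0753%, and 1 lower, 0.00327%, of all tested CpGs. Of all 15728 tested loci, 5 were called, 0.0318%, with 2 higher in FGR, 0.0127%, and 3 lower, 0.0191%. Among the 616 member loci 3 were called, 0.487%, 1 of them higher and 2 lower. Members have more reads than the other tested CpGs, and the shares were not tested against each other. limma on log2 ratios called none of these members or loci, with 51 member CpGs and 4 member loci at an unadjusted p under 0.05. It called none of the changes put into simulated data either, so its lack of calls cannot decide here. The 3 locus calls were lost when any 1 library was left out, though each difference kept its sign. With the lone library of a group assumed to vary like the others, 8 member CpGs were still called without FGR 1, 8 without FGR 2, and 0 without either control library.

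The largest difference was at a locus of 36 CpGs on chromosome 3, chr3:5860340-5860765, which overlaps no RefSeq gene. Its level was 67.02% and 66.3% in FGR and 25.2% and 27.5% in control, so both FGR libraries lay far above both controls. The difference was 40.3 points (66.6 ± 0.530% in FGR, 26.3 ± 1.65% in control, SD, n = 2 each, adjusted p = 1.5e-94 in the quasi-binomial test, between 0.111 and 1 when a library was left out and 0.909 in limma). A read counts at each CpG it covers, so the reads behind the p of the quasi-binomial test are not independent. No test on single molecules could be made.

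The difference sat in the first part of the locus and came with extra reads. The 11 called CpGs lay within 197 bp, from 5860365 to 5860560, and had 81.9% and 79.7% in FGR and 22.0% and 22.2% in control. They carried 1720 and 1880 reads per CpG in FGR and 390 and 375 in control, or 287 and 235 times the median of shared CpGs in FGR and 64.9 and 53.6 times in control. At the CpG with the smallest p, position 5860473, there were 2333 and 2529 reads with levels of 83.6% and 82.3% in FGR, and 456 and 440 reads with 19.3% and 19.8% in control. The 19 CpGs after the called ones had 22.4% and 23.8% in FGR and 28.4% and 32.0% in control, lower in both FGR libraries, at 48.96 and 34.9 times the median coverage in FGR and 36.3 and 31.5 times in control. The 5 CpGs before the called ones had 46.9% and 32.8% in FGR and 26.2% and 33.5% in control, with overlapping groups. The part of the extra reads in the difference was not tested.

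Within the stretch of extra reads the level was not even. Position 5860365 had 75.3% and 67.8% in FGR and 24.7% and 29.5% in control, while the next CpG, at 5860367, had 27.4% and 23.8% in FGR and 23.5% and 27.5% in control, although its coverage was 529 and 596 reads in FGR and 166 and 171 in control. That CpG differed by strand in FGR, with 55.5% and 51.6% on the forward strand in FGR and 22.4% and 18.4% in control, and 15.8% and 10.5% on the reverse strand in FGR and 24.7% and 39.7% in control. Position 5860569, at the other edge, had 18.4% and 18.8% in FGR and 25.7% and 26.1% in control. Over the called CpGs, by contrast, both strands were high, with 80.6% and 77.8% on the forward strand in FGR and 21.3% and 16.5% in control, and 83.0% and 81.4% on the reverse strand in FGR and 22.5% and 29.2% in control.

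**Figure D2:**
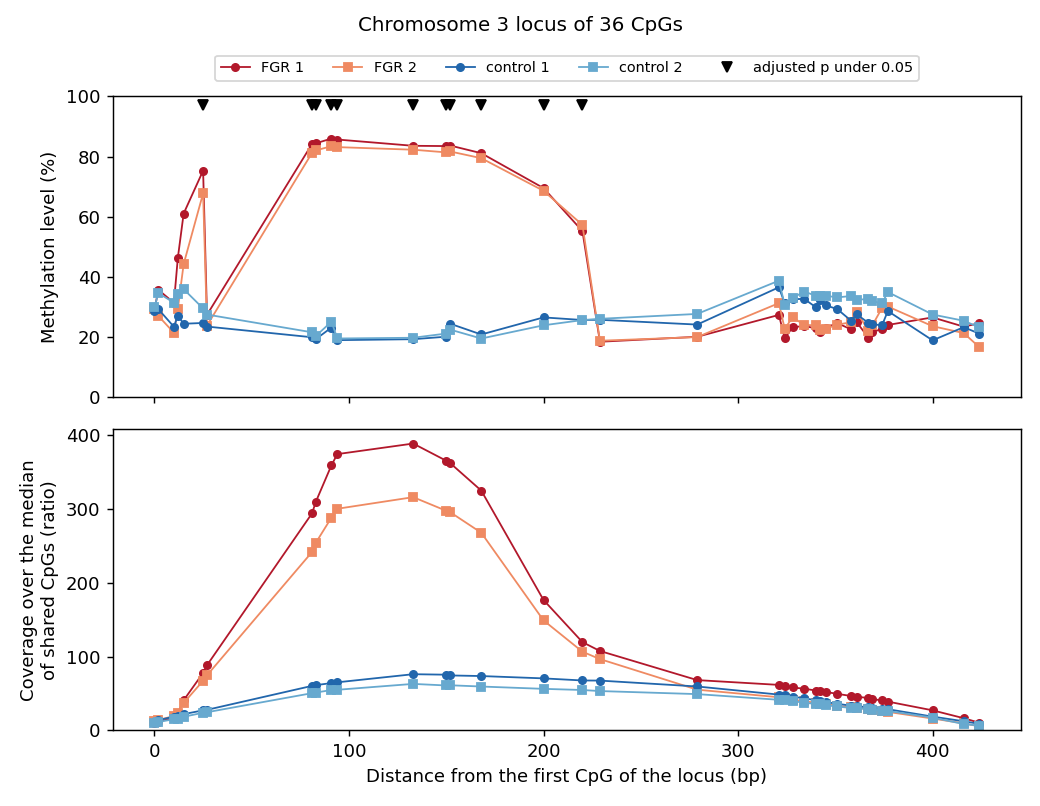
Methylation level (upper panel, %) and coverage over the library's median at shared CpGs (lower panel, ratio) at the 36 CpGs of the chromosome 3 locus, against the distance from its first CpG, with 1 line per library and triangles at called CpGs. Both FGR lines lie between 79.5% and 86.0% where their coverage is over 240 times the median, and all 4 lines lie near 20% to 40% further along.

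Across all members, such shifts of coverage between the groups were rare. Relative coverage was at least 1.5 times as high in both FGR libraries as in both control libraries at 18 of the 4005 CpGs, of which 13 lay in the chromosome 3 locus. It was lower by the same factor in both FGR libraries at 23 CpGs, 13 of them in the 636-CpG locus at the start of chromosome 9 and 3 at Gm40237. Of the 20 called member CpGs, 11 were among the 18 with higher coverage in FGR. The medians behind relative coverage were only 6 to 8 reads, and another scaling was not tried.

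The locus with the second highest number of CpGs, 590, was ribosomal, chr17:39843014-39848800, which overlaps Rn18s-rs5, a related sequence of the 18S ribosomal RNA gene, and AY036118. Its level was 20.5% and 21.0% in FGR and 20.9% and 25.9% in control, and FGR 2 lay just above control 1, so the groups overlapped (difference -2.65 points, adjusted p = 1 in the quasi-binomial test). Relative coverage was 54.8 and 37.9 in FGR and 53.2 and 41.1 in control. At 230 of its CpGs both FGR libraries lay below both controls and at 18 both lay above, against 17% and 13.2% of all tested CpGs. CpGs of one locus share reads and are no replicates of each other. Inside Rn18s-rs5 itself, 140 CpGs had 25.7% and 20.1% in FGR and 21.2% and 25.7% in control, and the 77 CpGs after it had 17.2% and 18.2% in FGR and 19.5% and 25.4% in control.

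All 6 called CpGs of the ribosomal locus lay inside Rn18s-rs5, between positions 39846761 and 39847613, and all were higher in FGR. At position 39847593 the level was 53.4% and 49.1% in FGR and 21.3% and 25.0% in control, over 1411 and 1240 reads in FGR and 663 and 597 in control. Together the 6 CpGs had 162 and 110 times the median coverage in FGR and 94.7 and 74.5 times in control. The difference was larger on the reverse strand, with 54.9% and 52.0% in FGR and 23.3% and 24.4% in control, while the forward strand had 26.2% and 24.0% in FGR and 16.8% and 21.0% in control. Without these 6 CpGs the 584 others of the locus had 19.8% and 20.4% in FGR and 20.9% and 25.9% in control. The part of coverage and strand in these calls was not tested.

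**Figure D3:**
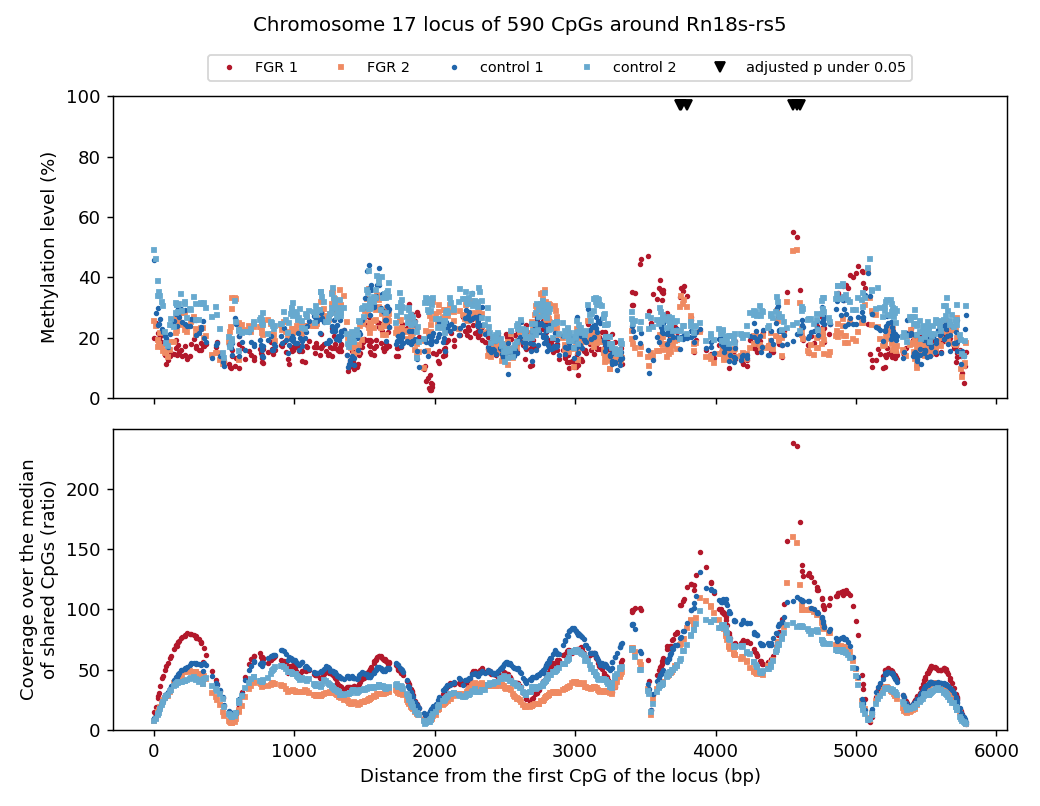
Methylation level (upper panel, %) and relative coverage (lower panel, ratio to the library's median at shared CpGs) at the 590 CpGs of the chromosome 17 locus, against the distance from its first CpG, with 1 point per CpG and library and triangles at called CpGs. Most points lie between 10% and 40%, and the CpGs near 50% in the FGR libraries stand where FGR coverage has a narrow peak.

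Several short loci elsewhere had a low level near that of the ribosomal locus, and 1 of them shared its pattern of CpG positions. Among the 58 loci of 10 or more CpGs, the distances between CpGs were compared in all 1653 pairs, and 7 pairs shared at least 10 CpGs and 50% of the smaller locus at 1 offset. A locus of 30 CpGs on chromosome 6, chr6:3201231-3201588, placed 28 of its 30 CpGs onto CpGs of Rn18s-rs5, from 39847142 to 39847498. A locus inside Lars2, which encodes the mitochondrial leucyl-tRNA synthetase, shared 11 CpGs with a locus of 15 inside Gphn, which encodes the synaptic scaffold gephyrin. Others linked in this way lay in Jarid2, a partner of the Polycomb complex PRC2, in Cmss1 and Filip1l, and in 2 stretches on chromosomes 8 and 18. A locus of 15 CpGs in Camk1d, a calcium-dependent kinase gene, shared 12 of them, in opposite orientation, with the chromosome 3 locus described above. Its own level was 40.3% and 36.4% in FGR and 36.3% and 38.9% in control, with overlapping groups and 8.02 and 7.06 times the median coverage in FGR and 7.17 and 6.50 times in control. Spacing is a description, and no sequence of these loci was compared. The best of all offsets and both orientations was taken, and how many CpGs unrelated loci share in this way was not worked out. The chromosome 8 stretch and the locus in Cmss1 and Filip1l only just met the limit, with 12 of 24 CpGs.

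Of these low-level loci, the locus on chromosome 6 and that in Lars2 were called, both lower in FGR. The chromosome 6 locus had 20.2% and 18.8% in FGR and 27.5% and 29.2% in control, a difference of -8.82 points (19.5 ± 1.02% in FGR, 28.3 ± 1.17% in control, SD, n = 2 each, adjusted p = 9.2e-11 in the quasi-binomial test). Its coverage was 29.7 and 24.1 times the median in FGR and 26.4 and 26.4 times in control. At the 28 shared CpGs, this locus had 19.8% and 18.5% in FGR and 27.4% and 28.96% in control, while the matching CpGs of Rn18s-rs5 had 17.4% and 18.1% in FGR and 18.8% and 25.7% in control. The locus of 18 CpGs in Lars2, chr9:123461833-123462184, had 18.8% and 20.3% in FGR and 26.1% and 29.6% in control, a difference of -8.30 points (19.6 ± 1.09% in FGR, 27.9 ± 2.49% in control, SD, n = 2 each, adjusted p = 0.0298 in the quasi-binomial test). At both loci the groups did not overlap. With a library left out, the difference was -9.64 to -8.00 points at the chromosome 6 locus and -10.1 to -6.54 points in Lars2. Neither call then held.

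Many low-level loci had a lower level in both FGR libraries. Of the 15 loci with 10 or more CpGs and a mean level under 45% over the 4 libraries, a limit set after the levels were seen, 12 had both FGR libraries below both controls. That limit counts the FGR libraries too, so it leaves out the chromosome 3 locus, which was low in control only. With the limit set on the control libraries alone, 14 loci were low, 10 of them lower in both FGR libraries and 1, the chromosome 3 locus, higher, with a median difference of -4.997 points. Among all 15728 tested loci 16% were lower in this way and 13.2% were higher, and among all 616 member loci 136 were lower, 22.1%, and 81 higher, 13.1%. Most of those loci are smaller. Of the other 43 member loci with 10 or more CpGs, 13 were lower, 30.2%, and 8 were higher. The median difference was -4.81 points over the 15 loci, -0.483 points over the other 43 loci of that size, -0.539 points over all member loci and -0.0199 points over the 15112 other loci. The 15 cannot be taken as independent, since several share CpG spacing and reads of near-identical copies cannot be told apart. The locus in Zc3h7a, a zinc finger protein gene, had 20.6% and 19.9% in FGR and 24.2% and 26.7% in control (adjusted p = 0.161 in the quasi-binomial test). The locus in Gm36876 on chromosome 11 had 24.2% and 16.7% in FGR and 37.1% and 32.9% in control, the most negative difference among loci with 3 or more CpGs, -14.5 points, with an adjusted p of 1.

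Others of the 15 lay in genes of known function. The locus in Cdk8, a kinase of the Mediator complex, had 19.2% and 21.5% in FGR and 24.2% and 26.1% in control. The locus in Jarid2 had 25.6% and 25.6% in FGR and 28.4% and 32.3% in control, and that in Cmss1 and Filip1l had 20.3% and 24.1% in FGR and 24.7% and 34.5% in control. The locus over Hjurp had 40.8% and 42.9% in FGR and 46.8% and 44.3% in control. None of these passed the test (adjusted p = 1 each in the quasi-binomial test). In 2 of the loci linked by spacing the libraries of a group differed widely. In the locus of 24 CpGs on chromosome 8, chr8:15519809-15520068, the levels were 26.1% and 36.7% in FGR and 45.9% and 38.8% in control. The locus of 17 CpGs in Gm30821 on chromosome 18 had 38.4% and 18.02% in FGR and 22.3% and 24.6% in control, a difference of 4.77 points with overlapping groups.

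**Figure D4:**
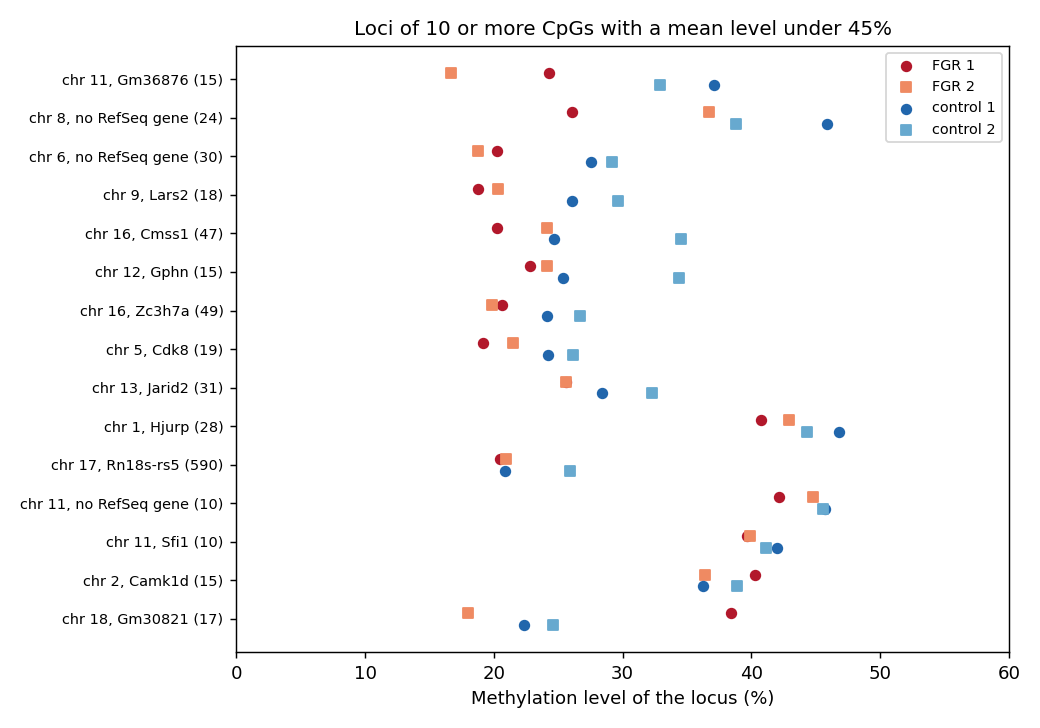
Methylation level (%) in each library of the 15 loci with 10 or more member CpGs and a mean level under 45%, named by chromosome, first overlapping RefSeq gene and number of CpGs, FGR libraries above control libraries in each row. In 12 of the 15 rows both FGR points lie left of both control points, and the chromosome 3 locus, with a mean over 45%, is not among them.

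The deepest loci were highly methylated and nearly the same in every library. There were 9 loci with a mean coverage of 500 reads per CpG or more, and they held 812 CpGs and 88.2% and 89.1% of all member reads in FGR and 90.3% and 90.8% in control. The deepest, of 30 CpGs at chr2:98666262-98667326, had 7071 and 5893 times the median coverage in FGR and 8020 and 7016 times in control, and levels of 85.1% and 85.1% in FGR and 85.1% and 85.2% in control. The locus with the most CpGs, 636 at chr9:3000031-3038257, had 80.1% and 80.3% in FGR and 80.2% and 80.4% in control. At none of the 9 did the groups differ by more than 0.705 points, and none was called. The largest of these differences was at the 4 CpGs in Chl1, a neural cell adhesion gene, with 78.6% and 78.8% in FGR and 79.4% and 79.5% in control.

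The deepest locus and the one with 636 CpGs both repeated their CpGs at a distance of 234 bp, which is the length of the unit of the mouse major satellite. In the chromosome 9 locus 241 of 631 possible pairs were that far apart, and in the chromosome 2 locus 8 of 22. Besides the locus in Chl1, the other deep loci lay on chromosomes 9, 12, 2, 14, 15 and 1, with levels from 72.1% to 85.2%. At the 636-CpG locus relative coverage was lower in FGR than in either control, with 315 and 286 in FGR and 422 and 360 in control. Before scaling there were 1891 and 2286 reads per CpG in FGR and 2532 and 2523 in control. The scaling rests on small medians, and scaling by summed coverage was not done.

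A few single CpGs in the deep loci were called, with small differences. Position 98662601 on chromosome 2 had 19.8% and 19.2% in FGR and 17.4% and 17.3% in control over 20846 to 24955 reads, a difference of 2.13 points. Position 3000469 on chromosome 9 had 21.1% and 20.7% in FGR and 18.7% and 18.6% in control. Position 98662685 on chromosome 2 was the 1 member CpG called lower, with 79.5% and 79.6% in FGR and 80.7% and 81.0% in control. The first and second of these had levels far below the 72.1% to 80.4% of the loci they lie in.

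Reads in most of these loci were unevenly split between strands, in shares that varied between libraries. At the deepest locus the forward strand held 51.8% and 53.1% of reads in FGR and 54.4% and 55.2% in control. At the chromosome 9 locus it held 82.8% and 80.8% in FGR and 77.2% and 75.9% in control. The forward shares of the groups did not overlap at 8 of the 9 deep loci, lower in FGR at some and higher at others. This count was not made over the other loci, so there is no share to set it against. The 9 loci were not shown to be independent of each other. Over members with 15 or more reads on each strand, the forward level exceeded the reverse level by 2.0 and 2.98 points in FGR and by 3.44 and 4.08 points in control. Whether the strand split moved any level was not tested.

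**Figure D5:**
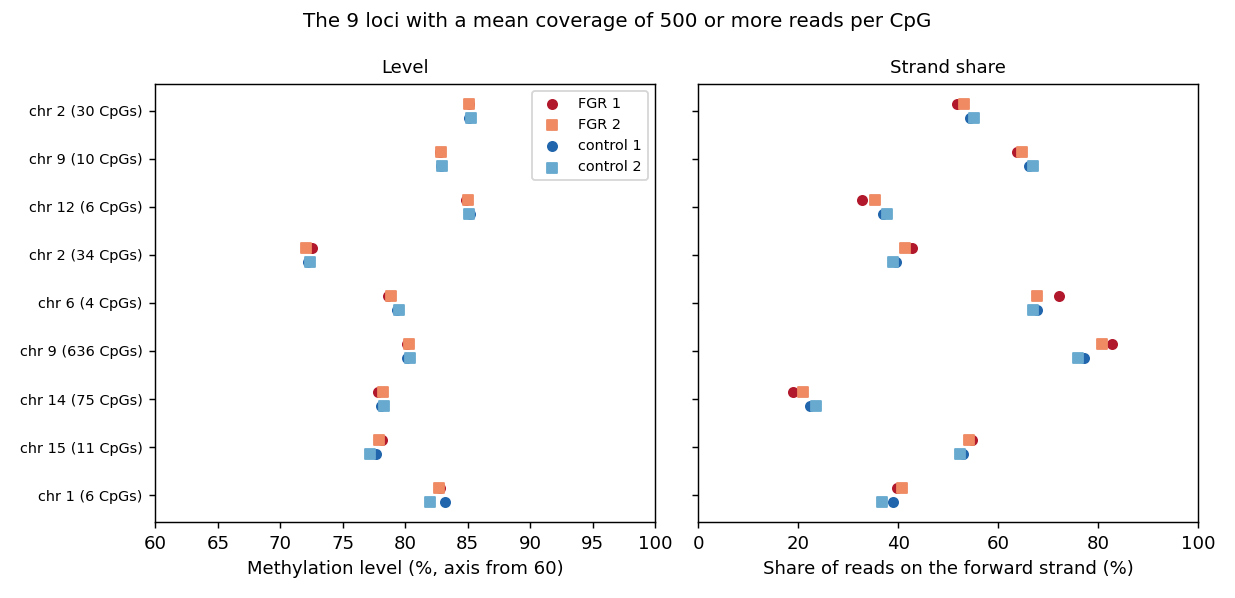
Methylation level (left, %, axis from 60) and share of reads on the forward strand (right, %) in each library at the 9 loci with a mean coverage of 500 or more reads per CpG, deepest at the top, FGR libraries above control libraries in each row. The levels of the 4 libraries lie nearly on top of each other in every row, while the strand shares are displaced between the groups in most rows.

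Many loci lay in clusters, several of them over families of related genes. With loci joined over gaps of up to 1 Mb, 12 clusters of 5 or more loci held 316 of the 616 loci and 1634 CpGs. The cluster with the most loci, 84, was at chr5:14903464-15714073 among the Speer genes, a rodent family expressed in testis, with 56.9% and 56.4% in FGR and 56.8% and 57.1% in control. A cluster of 76 loci at chr4:145544046-147642137 lay among KRAB-type zinc finger genes such as Zfp600, Zfp992 and Rex2, with 64.6% and 64.0% in FGR and 64.4% and 63.7% in control. In both, the groups overlapped.

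A cluster of 21 loci on chromosome 1, from 88211575 to 88310548, ran over the Ugt1a genes, whose enzymes attach glucuronic acid to bilirubin and drugs, and over Mroh2a and Hjurp, with 64.0% and 63.1% in FGR and 64.2% and 63.8% in control. Within it the locus of 67 CpGs over Mroh2a and Hjurp had 85.8% and 86.1% in FGR and 86.0% and 86.4% in control. Also on chromosome 1, 18 loci around Sp110 and Sp140, which encode interferon-induced nuclear body proteins, had 63.1% and 64.9% in FGR and 64.7% and 65.0% in control. The cluster of 18 loci on chromosome 11 around Sfi1, a centrin-binding protein of the centrosome, had the highest relative coverage of the 12, with 25.5 and 25.4 in FGR and 30.1 and 27.8 in control, and levels of 67.2% and 66.9% in FGR and 68.2% and 68.8% in control. Its main locus, of 155 CpGs, had 67.7% and 67.6% in FGR and 68.9% and 69.7% in control (difference -1.66 points, adjusted p = 1 in the quasi-binomial test).

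A cluster of 5 loci on chromosome 10 held Duxf3, a copy of the double-homeobox gene Dux that activates genes of the early mouse embryo. Its locus of 34 CpGs over Duxf3 had 76.5% and 74.5% in FGR and 78.2% and 78.5% in control, and the neighbouring locus of 43 CpGs had 74.1% and 73.4% in FGR and 75.3% and 77.4% in control. Both were lower in both FGR libraries, with an adjusted p of 1 each in the quasi-binomial test. The locus of 82 CpGs over Tmem267 on chromosome 13 had 75.4% and 75.3% in FGR and 76.5% and 77.1% in control. Over all 12 clusters, 58 of the 316 loci had both FGR libraries below both controls and 45 had both above, against 16% and 13.2% of all tested loci.

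At the ends of the range, 1 locus of 3 or more CpGs was almost unmethylated. The 8 CpGs in Gm10222, chr1:24612633-24613234, had 5.38% and 5.17% in FGR and 6.86% and 4.71% in control, at 11.6 and 18.4 times the median coverage in FGR and 14.3 and 15.9 times in control. At 1 offset, 5 of its 8 CpGs matched the spacing of CpGs in mitochondrial DNA. The next lowest were the 3 CpGs in Speer4cos, with 6.12% and 12.2% in FGR and 6.60% and 7.75% in control. The most methylated loci of 3 or more CpGs were near 90%, among them that in Gm51981 on chromosome 12, with 94.0% and 94.6% in FGR and 92.7% and 95.3% in control. After the chromosome 3 locus, the most positive differences were 7.54 points at 3 CpGs in Gm36327 on chromosome 6, with 56.9% and 51.7% in FGR and 45.9% and 47.6% in control, and 6.95 points at 3 CpGs in Gm30417 on chromosome 5, with 57.4% and 51.7% in FGR and 46.9% and 48.2% in control, neither of them called.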

How the data were processed

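Bisulfite libraries of 2 FGR and 2 control samples were used. Per the submitters' processing notes, the tools were Trim Galore 0.6.5, Bismark and methylKit 1.28.0, with the build mm10. The deposited coverage is a count of reads per cytosine and strand, with a minimum of 5, and the deposited methylation is a percent of those reads, per the file headers. The sources used here do not say whether duplicate reads were removed or how reads that match several places were treated, and both bear directly on repeats.

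Methylated reads were recovered as coverage times percent and summed over strands and CpGs. All autosomal CpGs with 10 or more reads in every library, and loci joined over gaps of up to 1000 bp, were tested with a quasi-binomial model of methylated and unmethylated reads with group as the only term, overdispersion moderated with squeezeVar of limma 3.58.1 (R 4.3.3) and kept at 1 or above, and Benjamini-Hochberg adjustment over all features. Moderation over all features, as first planned, called none of the changes put into simulated data, and neither did limma on log2 ratios. The prior was therefore taken from features with 2 or more expected reads of each kind, and no feature was given less than its own overdispersion. The planned version was kept as an alternative. Global values were compared by exact permutation tests. The test scripts were tested on simulated data in which each feature was drawn on its own. CpGs of a locus share reads here, so false calls among such CpGs were not measured.

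Wilson 95% intervals for a single library reached at most ± 1.36 points at the deep loci and ± 4.47 at the low-level loci, and ± 16.8 for 1 CpG with 30 reads at 50%. They cover counting error only. Relative coverage is the coverage per CpG over the library's median at shared CpGs. Those medians, 6 and 8 reads in FGR and 6 and 7 in control, are whole numbers close to the minimum of 5. Group differences in relative coverage are therefore coarse. Genes and promoter windows came from RefSeq tables of GRCm38.p6, the assembly of mm10. Named loci are those with the most CpGs, the highest coverage, the lowest and highest levels, the called ones, the largest differences and those in named genes. Loci of the low-level group, of clusters and of linked pairs beyond these were chosen after their values were seen. The members and lists were chosen with earlier results of these data known. One of the marker genes listed for the check of the cells is not reported here.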

Additional observations from a re-analysis of the deposited data

How the results depend on the processing

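The count of 20 called member CpGs was 31 with the replicate number as a block, 0 with limma and 0 with the moderation as planned, and ranged from 0 to 8 when a library was left out. The count of 3 called member loci was 5 with members of 20 reads in every library, 1 with a difference of at least 10 points, 0 with limma, 0 with the moderation as planned and 0 whichever library was left out. With the block, the locus in Gm36876 passed the test as well, with an adjusted p of 0.000585. CpG by CpG, same-numbered libraries deviated together only weakly (correlation 0.0667 over 4005 CpGs). The pooled member level was nevertheless higher in replicate 2 of both groups, with 76.8% and 77.5% in FGR and 77.7% and 78.4% in control. Outside the deep loci it was 40.2% and 43.5% in FGR and 40.7% and 44.7% in control. The labels give only the number, and whether same-numbered libraries share anything more was not tested. As planned, 122 member CpGs and 12 member loci had an unadjusted p under 0.05, against 272 and 33 in the test used. The median locus difference was 1.03 points with members of 50 reads in every library, and the difference of members from other CpGs was 7.33 points when reads weighted the level; the cause of the first was not tested. The pooled level difference stayed negative, from -1.24 to -0.518 points over the libraries left out, and -0.863 points without the called loci. The depth of 30 reads limits single CpGs, and 2 libraries per group limit every test.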
